A study of Mus musculus with 12 samples.

Results

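Lipid-associated macrophages are macrophages that gather around lipid-laden or dying adipocytes in obese fat, and 7 genes used to recognise them were followed here in epididymal white adipose tissue (eWAT). The genes were chosen by name: Trem2, Tyrobp, Gpnmb, Spp1, Cd9, Itgax and Cd44. All 7 were found among the 22947 genes of the deposited table. All 7 also reached 1 FPKM in 3 or more libraries, as did 12775 genes in all, and the tests were run on those. The question put to the data was how far a high-fat diet moved these genes in the tissue, and where they stood when the same diet carried a chrysanthemum leaf extract or luteolin, a flavonoid of that leaf.

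The mice were male C57BL/6J, 21 weeks old, and had eaten their diet for 16 weeks from 5 weeks of age. The ND group ate a normal diet, the HFD group a high-fat diet, the CLE group the high-fat diet plus an ethanol extract of chrysanthemum leaf at 1.5% of its weight, and the LU group the high-fat diet plus luteolin at 0.003%. Each group gave 3 libraries from 3 mice, which the study describes as representative of larger groups, and 12 libraries were compared. CLE is a mixture and LU a single compound given at another dose, so their values stand side by side as diets and not as matched doses.

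TREM2 is a surface receptor that binds lipids and lipoproteins, and it signals through the adaptor DAP12, the product of Tyrobp, to the kinase SYK. In obese fat, macrophages that carry TREM2 take up lipid, form crown-like structures around adipocytes and switch on lysosomal and lipid-handling genes. GPNMB is a glycoprotein of lysosomes and the cell surface, osteopontin (Spp1) is a secreted ligand of integrins and of the hyaluronan receptor CD44, CD9 is a tetraspanin that many cell types carry, and Itgax encodes integrin alpha X (CD11c), which is also a dendritic cell marker.

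The whole tissue was extracted, so that fewer macrophages and less RNA of a gene per macrophage cannot be told apart in any value below. The deposited unit was FPKM, fragments scaled to transcript length and library size, and the read depth behind it is unknown. Totals over all genes summed here lay between 435095 and 455040 FPKM per library. Totals over all deposited rows, among them rows assigned to no gene here, were uneven, between 1290982 and 6409288 FPKM per library. The letter R, whose meaning is not given, marks 4 titles: LU mouse 2, CLE mouse 4, ND mouse 3 and ND mouse 4. No HFD title has it. The column headings of the same 4 libraries also share a numeric suffix that no other of the 12 has. No member passed for a difference with that letter in the 12 libraries by limma (adjusted p = 1 for each). The estimates ran from -0.47 for Gpnmb to -0.01 for Cd44 (log2). With only 4 such libraries, differences of this size could go unseen. Adipocyte genes filled the tissue in all groups, with 7 adipocyte markers summing to between 5211 and 8523 FPKM. T, NK and B cell markers summed to between 3.52 and 8.77 FPKM over 9 genes. Epididymal epithelium markers, which would show adjoining epididymis, summed to between 0 and 5.53 FPKM over 5 genes, with the highest value in an ND library.

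The high-fat diet raised all 7 genes. Trem2 (chr17:48346401-48354147 of GRCm38, plus strand) was at 1.49, 1.88 and 1.18 FPKM in ND mice 2, 3 and 4 and at 209, 163 and 167 FPKM in HFD mice 12, 15 and 18. Tyrobp (chr7:30413760-30417585, plus strand) was at 28.4, 35.9 and 26.6 FPKM in the ND mice and at 316, 272 and 276 FPKM in the HFD mice. The receptor was therefore scarce in lean fat while its adaptor, which serves many other myeloid receptors, was already present, and neither gene overlapped between the diets. All 7 members were without overlap here, as were 30.2% of tested genes in the same direction. Gpnmb (chr6:49036546-49070929, plus strand) was at 5.54, 3.50 and 3.30 FPKM in ND and at 541, 412 and 459 FPKM in HFD, which made it the most abundant member per length in HFD fat. Itgax (chr7:128129547-128150657, plus strand) was at 1.73, 2.04 and 2.57 FPKM in ND and at 103, 72.0 and 76.5 FPKM in HFD. Both were far apart between the diets, by 114-fold and 39.6-fold between the means.

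The secreted ligand and its receptor started from different levels. Spp1 (chr5:104435118-104441050, plus strand) was at 0.278, 0.251 and 1.04 FPKM in ND and at 34.3, 32.6 and 36.3 FPKM in HFD. Cd44 (chr2:102811141-102901665, minus strand) was at 4.28, 6.46 and 6.34 FPKM in ND and at 77.9, 57.1 and 62.5 FPKM in HFD. Cd9 (chr6:125460266-125494791, minus strand) differed least, with 40.4, 36.4 and 50.5 FPKM in ND and 154, 133 and 135 FPKM in HFD. In ND fat Cd9 had the highest mean of the members (42.4 ± 7.31 FPKM, SD, n = 3) and Spp1 the lowest (0.522 ± 0.447).

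**Figure D1:**
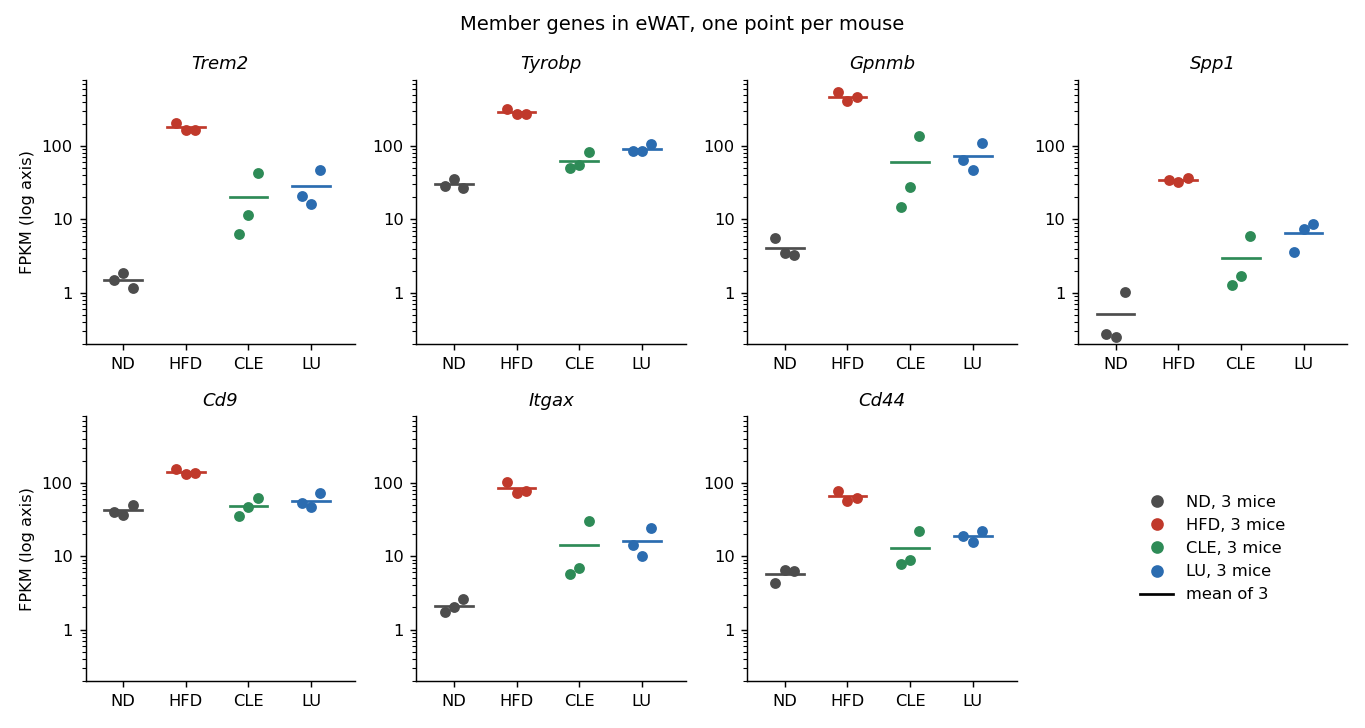
FPKM of the 7 genes (y axis, log scale, the same range in every panel) in the 3 mice of each of the 4 groups (x axis); points are mice and lines are group means. HFD mice lie above all others in every panel, CLE and LU mice lie between ND and HFD for all genes but Cd9, and the ND points of Trem2, Spp1 and Itgax lie near or below 3 FPKM.

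Changes were measured on log2(FPKM + 1), a scale that shrinks differences between values near or below 1 FPKM, and the rise was 6.54 ± 0.60 for Gpnmb (SE), 6.16 ± 0.54 for Trem2, 4.76 ± 0.48 for Itgax, 4.58 ± 0.39 for Spp1, 3.33 ± 0.30 for Cd44, 3.21 ± 0.18 for Tyrobp and 1.72 ± 0.21 for Cd9. Their adjusted p by limma lay between 5.9e-07 and 4.8e-05. Calls required an adjusted p (Benjamini-Hochberg) below 0.05 together with a change of more than 1.5-fold, and by this rule 7 of 7 members were called higher, against 14.9% of all tested genes. Gpnmb ranked 4 and Trem2 ranked 5 among the 12775 tested genes by the size of the rise, while Cd9 ranked 395. Sizes and order depend on the pseudocount: with 0.1 in place of 1 the rise was 6.83 for Gpnmb, 6.81 for Trem2, 6.02 for Spp1 and 5.24 for Itgax. The means differed by 118-fold for Trem2 and 65.9-fold for Spp1. With the rows of the neighbouring gene Malsu1, which the table files under Gpnmb, the rise of Gpnmb was 4.92. The exact two-sided permutation test gave p = 0.1 for each gene, the smallest value that 3 against 3 mice allow.

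CLE mice carried all 7 genes at lower levels than HFD mice, and with a wide spread between mice. Trem2 was at 6.25, 11.5 and 43.5 FPKM in CLE mice 2, 4 and 11, and Tyrobp at 50.3, 55.2 and 84.1 FPKM. Gpnmb was at 14.9, 27.9 and 137 FPKM and Itgax at 5.75, 6.83 and 29.8 FPKM. Mouse 11 was the highest of the 3 CLE mice in all 7 genes and mouse 2 the lowest in all 7. Spp1 was at 1.29, 1.72 and 6.02 FPKM, Cd44 at 7.90, 8.83 and 22 FPKM, and Cd9 at 34.8, 46.4 and 62.9 FPKM. Even the values of mouse 11 lay below each HFD mouse in every gene, an absence of overlap that 26.2% of tested genes showed in this direction.

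The fall from HFD to CLE on the log2(FPKM + 1) scale was -3.56 ± 0.60 for Gpnmb, -3.50 ± 0.54 for Trem2, -3.33 ± 0.39 for Spp1, -2.83 ± 0.48 for Itgax, -2.39 ± 0.30 for Cd44, -2.20 ± 0.18 for Tyrobp and -1.57 ± 0.21 for Cd9 (SE). By limma 7 of 7 members were called lower, against 10.1% of all tested genes, with adjusted p between 2e-05 and 0.001. The mean of CLE as a share of the mean of HFD was 8.75% for Spp1, 11.4% for Trem2, 12.7% for Gpnmb, 16.8% for Itgax, 19.6% for Cd44, 22% for Tyrobp and 34.1% for Cd9. Without CLE mouse 11 the falls were larger and stayed called, at -4.45 for Gpnmb, -4.24 for Trem2 and -3.53 for Itgax, which moved these folds by over 1.5 times. Without CLE mouse 2 the fall of Gpnmb was smaller, at -2.89, and stayed called.

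LU mice showed 6 of the genes between the lean and the high-fat level, and Cd9 overlapping with the lean level. Trem2 was at 21.2, 16.4 and 47.6 FPKM in LU mice 2, 3 and 8, and Tyrobp at 85.3, 85.7 and 105 FPKM. Gpnmb was at 65.3, 46.7 and 109 FPKM and Itgax at 14.2, 10.2 and 24.3 FPKM. Mouse 8 was the highest LU mouse in all 7 genes, and the lowest was mouse 3 in 5 of them and mouse 2 in 2. Spp1 was at 3.63, 7.37 and 8.73 FPKM, Cd44 at 19.0, 15.6 and 22.2 FPKM, and Cd9 at 52.2, 46.8 and 71.7 FPKM. No LU mouse reached the lowest HFD mouse in any of the genes, which held for 22.1% of tested genes in this direction.

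Against HFD, LU mice were lower by -2.76 ± 0.54 for Trem2, -2.74 ± 0.60 for Gpnmb, -2.37 ± 0.48 for Itgax, -2.29 ± 0.39 for Spp1, -1.75 ± 0.30 for Cd44, -1.64 ± 0.18 for Tyrobp and -1.31 ± 0.21 for Cd9 on the log2(FPKM + 1) scale (SE). Here too 7 of 7 members were called lower by limma, against 7.64% of all tested genes, with adjusted p between 0.0002 and 0.0068. The mean of LU as a share of the mean of HFD ran from 15.6% for Gpnmb to 40.4% for Cd9. Without the 4 libraries that carry the letter R, Gpnmb was at -2.69 with an adjusted p of 0.055 by limma, and the other 6 members stayed called.

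CLE and LU could not be separated on these genes. The CLE mean was below the LU mean in each of the 7 genes, by -0.26 for Cd9 up to -1.03 for Spp1 on the log2(FPKM + 1) scale, but 0 of 7 were called, with adjusted p between 0.89 and 0.92 by limma. At an unadjusted p under 0.05 there were 2 members, against 5.26% of tested genes, Tyrobp (-0.57, 95% confidence interval -0.96 to -0.17) and Spp1 (-1.03, -1.88 to -0.19). Of all tested genes 0.00783% were called between CLE and LU, which is 1 gene, Xcl1, a chemokine of T and NK cells, named here after its value was seen. The mice of the 2 groups overlapped in 6 members and did not in Tyrobp, where the highest CLE mouse had 84.1 FPKM and the lowest LU mouse 85.3 FPKM, an arrangement found in 6.34% of tested genes. The intervals for the other genes still held sizeable differences in either direction, from -2.14 to 0.50 for Gpnmb, -1.92 to 0.44 for Trem2, -1.51 to 0.58 for Itgax, -1.31 to 0.02 for Cd44 and -0.71 to 0.20 for Cd9. All SE and intervals rest on 1 spread shared by the 4 groups. The CLE mice had the widest spread in each of the 7 genes. For Gpnmb the SD on this scale was 1.61 in CLE, 0.61 in LU, 0.33 in ND and 0.20 in HFD. The intervals of comparisons with CLE are therefore likely too narrow, and those of HFD against ND too wide. Without CLE mouse 11 the difference widened to between -1.71 for Gpnmb and -0.47 for Cd9, with adjusted p between 0.099 and 0.43 by limma, and still 0 members were called. Without CLE mouse 2 it narrowed to between -0.72 for Spp1 and -0.05 for Cd9, with Gpnmb at -0.16 and Trem2 at -0.17.

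**Figure D2:**
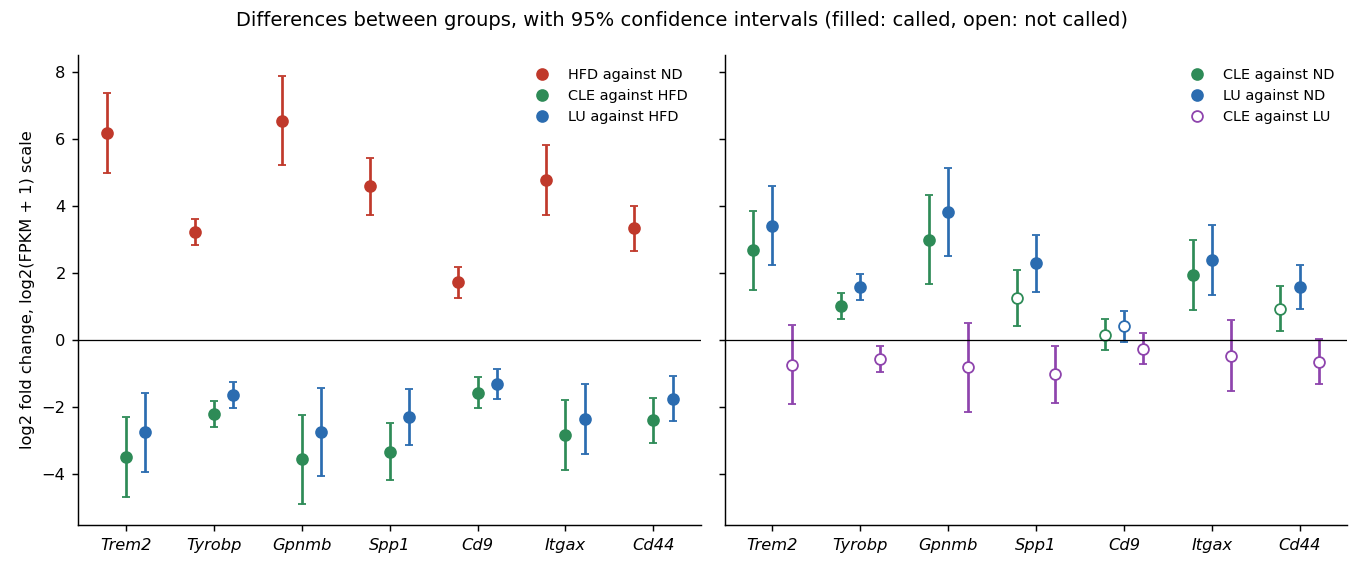
Fold change of each gene on the log2(FPKM + 1) scale (y axis) with its 95% confidence interval from limma, for the comparisons with HFD and ND (left) and for CLE and LU against ND and against each other (right). Filled points were called and open points were not; HFD against ND ran from 1.72 to 6.54, CLE against LU from -1.03 to -0.26.

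Compared with lean fat, LU mice kept 6 of the 7 genes raised and CLE mice 4. In LU against ND the rise was 3.81 ± 0.60 for Gpnmb, 3.41 ± 0.54 for Trem2, 2.39 ± 0.48 for Itgax, 2.28 ± 0.39 for Spp1, 1.58 ± 0.18 for Tyrobp and 1.58 ± 0.30 for Cd44 (SE), with adjusted p between 0.0012 and 0.0085 by limma, against 4.97% of all tested genes called higher. In CLE against ND, Gpnmb (2.99 ± 0.60, adjusted p = 0.021), Trem2 (2.67 ± 0.54, 0.021), Itgax (1.93 ± 0.48, 0.043) and Tyrobp (1.01 ± 0.18, 0.015) were called higher by limma, against 2.06% of all tested genes. Spp1 (1.25 ± 0.39, adjusted p = 0.079) and Cd44 (0.93 ± 0.30, 0.092) did not pass, although their CLE mice all lay above their ND mice. In CLE against ND 6 members were without overlap, against 13.2% of tested genes in this direction, and in LU against ND the same 6, against 18.5%. Cd9 passed in neither, at 0.15 ± 0.21 in CLE and 0.41 ± 0.21 in LU, and its mice overlapped with ND in both. The calls of CLE against ND were not stable, since 0 members were called without ND mouse 2, 2 without ND mouse 3, 2 without ND mouse 4 and 0 in a fit of only these 2 groups. Without CLE mouse 11 Trem2 (1.93), Gpnmb (2.09) and Itgax (1.23) were lower, and Itgax was no longer called (adjusted p = 0.061 by limma). With the Malsu1 rows included Gpnmb was at 1.69 in CLE against ND, no longer called (adjusted p = 0.075 by limma), and at 2.35 in LU against ND. With a pseudocount of 0.1 Spp1 was at 2.23 in CLE against ND (adjusted p = 0.054 by limma) and at 3.56 in LU against ND. Without the libraries with the letter R only ND mouse 2 was left of the ND group, so only sizes are given. In CLE against ND they were then 2.85 for Trem2, 2.84 for Gpnmb, 2.40 for Itgax and 1.17 for Tyrobp. In LU against ND they were 3.55 for Trem2, 3.47 for Gpnmb, 2.82 for Spp1, 2.62 for Itgax, 1.89 for Cd44 and 1.71 for Tyrobp.

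General macrophage genes moved with the members. The 11 core macrophage markers, among them Adgre1 (F4/80), Csf1r, Cd68, Mpeg1 and Ctss, summed to between 133 and 173 FPKM in ND, 1382 and 1668 in HFD, 241 and 479 in CLE and 427 and 562 in LU. In HFD against ND 10 of the 11 passed as higher and 0 as lower, against 14.9% and 10.8% of all tested genes. The median of the 11 was 3.42 on the log2(FPKM + 1) scale, beside -0.02 over all tested genes and 4.58 over the 7 members. Cd68, a lysosomal glycoprotein of macrophages, rose from 14.9 ± 2 to 266 ± 25.6 FPKM (log2 fold change 4.08), and Adgre1 from 8.86 ± 2.26 to 146 ± 16.6 FPKM (3.92). Mertk, a receptor for dying cells, did not pass, at 21.1 ± 1.65 and 23.6 ± 2.09 FPKM. In CLE and in LU against HFD 10 of the 11 were called lower and 0 higher, with medians of -2.10 and -1.59. Of all tested genes 10.1% were called lower in CLE and 7.64% in LU against HFD.

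Set against these core genes in the same library, the members split into groups. Trem2 equalled 0.954, 1.09 and 0.885% of the summed core FPKM in the ND mice and 12.5, 11.8 and 11.6% in the HFD mice. Gpnmb equalled 3.55, 2.02 and 2.47% in ND and 32.4, 29.8 and 31.9% in HFD. These shares were 12.3 and 11.7 times as high in HFD, so that both genes rose more steeply than the core macrophage genes did. Itgax went from 1.11, 1.17 and 1.93% in ND to 6.16, 5.21 and 5.32% in HFD, and Spp1 from 0.178, 0.145 and 0.778% to 2.06, 2.36 and 2.53%. None of these 4 genes overlapped between the diets on this measure, with p = 0.1 in the exact permutation test, again the smallest possible. The share of all tested genes without overlap was not computed for this measure or for the mean log2 scale below. Whether such separation is unusual is therefore unknown.

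Tyrobp kept close to the core genes, with 18.2, 20.7 and 20% of their sum in ND, 18.9, 19.7 and 19.2% in HFD, 20.9, 17.5 and 17.6% in CLE and 19.6, 20.1 and 18.7% in LU. Its groups overlapped on this measure (exact permutation p = 0.6 for HFD against ND). Against the mean log2 of the same core genes, which weights each gene equally, Tyrobp was higher in HFD than in ND by 0.44 with no overlap, so this result depends on the scale. Cd44 also overlapped, with 2.74, 3.73 and 4.75% in ND and 4.67, 4.13 and 4.35% in HFD (exact permutation p = 0.5), and on the mean log2 scale it stood 0.55 higher in HFD. Cd9 went the other way, from 25.9, 21.0 and 37.9% in ND to 9.22, 9.66 and 9.43% in HFD, and the groups did not overlap on either scale. Cd9 thus rose in the tissue by less than the core macrophage genes in sum, although 2 of the 11, Mertk (0.15) and Cd14 (0.60), had smaller log2 fold changes than Cd9 (1.72).

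In the supplemented mice the shares of Trem2 and Gpnmb lay between those of ND and HFD. Trem2 equalled 2.59, 3.64 and 9.09% of the core sum in CLE mice 2, 4 and 11 and 4.86, 3.84 and 8.47% in LU mice 2, 3 and 8. Gpnmb equalled 6.19, 8.84 and 28.6% in CLE and 15, 10.9 and 19.4% in LU. In CLE mouse 11 the Gpnmb share was close to the lowest HFD mouse, 29.8%, although its core sum of 479 FPKM was far below the lowest HFD sum of 1382 FPKM. Spp1 equalled 0.535, 0.547 and 1.26% in CLE and 0.832, 1.72 and 1.55% in LU, all below the HFD mice. Itgax equalled 2.38, 2.16 and 6.22% in CLE and 3.25, 2.38 and 4.32% in LU, and CLE mouse 11 exceeded every HFD mouse. The exact permutation p of CLE against HFD was 0.1 for Trem2, Gpnmb and Spp1 and 0.4 for Itgax, and that of LU against HFD was 0.1 for all 4. The share of Cd9 was instead higher than in HFD without overlap, with means of 14.1% in CLE and 11.9% in LU beside 9.43% in HFD. Cd44 overlapped with HFD in both, with means of 3.56% in CLE, 3.99% in LU and 4.38% in HFD (exact permutation p = 0.3 for each).

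**Figure D3:**
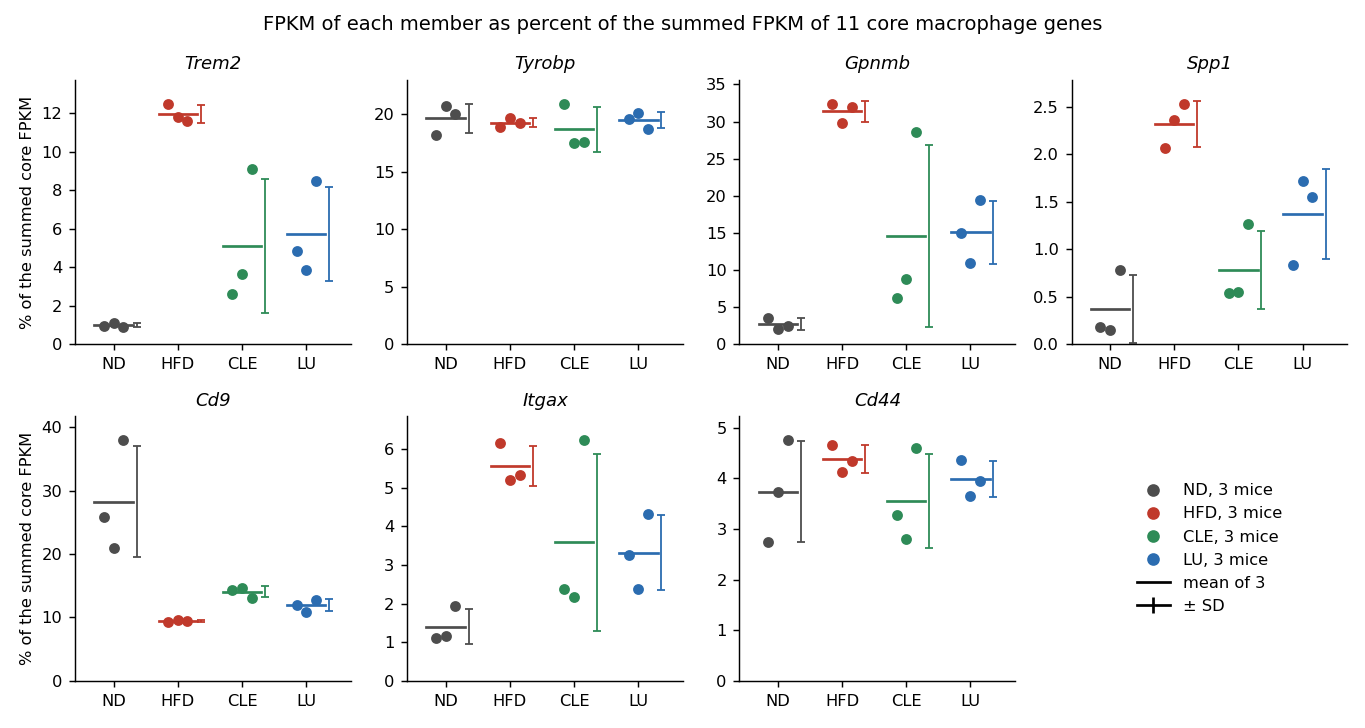
FPKM of each member as percent of the summed FPKM of 11 core macrophage genes in the same library (y axis, linear from 0, its range differing between panels) in the 4 groups (x axis); points are mice, lines means and bars ± SD (n = 3). Trem2, Gpnmb, Spp1 and Itgax stand highest in HFD by the mean, Tyrobp stays near 19% in all groups, and Cd9 falls from 28.2% in ND to 9.43% in HFD.

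Most genes of the wider lipid-associated programme followed the members. Of 18 genes, lysosomal, lipid-handling and others, 12 were called higher and 3 lower in HFD against ND, with a median of 1.42. Of all tested genes 14.9% were called higher and 10.8% lower. Lpl (log2 fold change 0.04), Cd36 (0.09) and Lgals1 (0.27) were not called. Mmp12, an elastase of macrophages, rose from 3.40 ± 1.38 to 440 ± 76.9 FPKM, and was at 89.3 ± 101 in CLE and 98.8 ± 44.4 in LU. Atp6v0d2, a subunit of the vacuolar proton pump, rose from 0.684 ± 0.0131 to 113 ± 19.9 FPKM, and was at 11.8 ± 11.8 in CLE and 20.6 ± 9.53 in LU. The 3 genes that fell were Fabp4 (19732 ± 488 to 10999 ± 766 FPKM), Apoe (4701 ± 282 to 2908 ± 432 FPKM) and Acp5 (196 ± 6.35 to 122 ± 6.31 FPKM). Fabp4 is the fatty acid carrier of adipocytes and Apoe a lipoprotein component that binds TREM2 and is also made by adipocytes. In CLE against HFD 11 of the 18 were called lower and 2 higher, and in LU against HFD likewise 11 and 2, the 2 being Fabp4 and Apoe in both. Of all tested genes 6.33% were called higher in CLE and 4.81% in LU against HFD, and 10.1% and 7.64% lower.

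Most partners of TREM2 and DAP12 were called higher in HFD fat as well. The list of 17 holds ligands, sheddases, other receptors and adaptors beside the kinases and signalling proteins downstream, and 15 were tested. In HFD against ND 13 were called higher, against 14.9% of all tested genes, and 1, Apoe, lower (median 1.69). Vav1, an exchange factor for RAC, rose from 2.72 ± 0.416 to 20.8 ± 0.875 FPKM. In CLE against HFD 12 were called lower and 1 higher, and in LU against HFD 10 lower and 1 higher, Apoe being the higher gene in both. The shares of all tested genes called lower were 10.1% in CLE and 7.64% in LU. Trem1 and Trem3, the related receptors that share DAP12, did not reach 1 FPKM in 3 libraries and were not tested.

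Partners and relatives of the other members were counted in the same way, beside the 14.9% of all tested genes called higher in HFD against ND. Those called lower were 10.1% in CLE and 7.64% in LU against HFD. Of the 7 partners and relatives of integrin alpha X, 6 were called higher in HFD against ND and 4 lower in CLE and in LU against HFD. Among them Itgad, the neighbouring alpha D chain, rose from 0.0553 ± 0.0501 to 16.5 ± 3.98 FPKM, and Itgb2, the beta chain that pairs with alpha X, from 8.76 ± 1.71 to 151 ± 6.27 FPKM. Of 14 integrins, hyaluronan enzymes and linker proteins around osteopontin and CD44, 11 were tested and 4 were called higher, with 2 lower in each supplemented group. Itga4, a chain of an osteopontin receptor, rose from 1.73 ± 0.649 to 8.33 ± 1.45 FPKM, and Itgav from 9.57 ± 0.714 to 18.2 ± 1.54 FPKM. The partners of CD9 gave 3 of 8 called higher, including Ptgfrn (9.60 ± 1.13 to 25.7 ± 0.565 FPKM) and Igsf8 (11.8 ± 0.967 to 26.2 ± 1.78 FPKM), which encode immunoglobulin-like proteins bound to CD9. Those 2 and Cd63 were called lower again in both supplemented groups. Among relatives and regulators of GPNMB 5 of 6 were tested and 3 were called higher, among them the lysosome and pigment regulators Mitf (6.11 ± 1.65 to 15 ± 2.81 FPKM) and Tfeb (6.29 ± 0.972 to 13.5 ± 0.554 FPKM), both called lower in CLE and in LU against HFD.

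**Figure D4:**
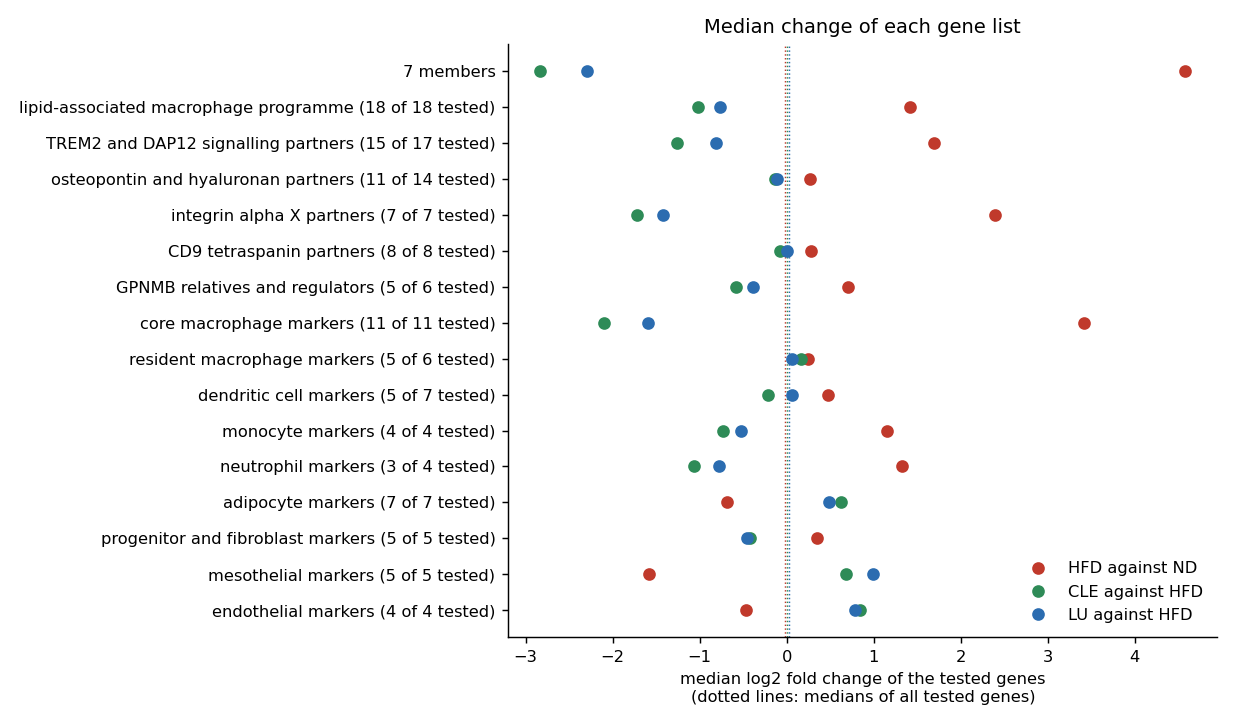
Median fold change on the log2(FPKM + 1) scale (x axis) of the 7 members and of each gene list with at least 3 tested genes (y axis), for HFD against ND, CLE against HFD and LU against HFD; dotted lines are the medians of all tested genes. The members and the core macrophage markers lie farthest from 0, and the adipocyte, mesothelial and endothelial lists lie on the opposite side.

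Markers of other cells gave calls in both directions, beside 14.9% of all tested genes called higher and 10.8% called lower in HFD against ND. A single call in lists this short is not far from those shares. Of the resident macrophage markers 5 of 6 were tested and 2 were called higher in HFD against ND, Folr2 (29.4 ± 9.26 to 95.3 ± 5.13 FPKM) and Mrc1 (22.1 ± 4.37 to 58.1 ± 2.71 FPKM), while Lyve1 was at 7.93 ± 1.19 and 8.10 ± 2.07 FPKM. Dendritic cell markers, to which Itgax also belongs, gave 1 of 5 tested genes called higher, Clec9a (2.28 ± 0.604 to 4.06 ± 0.962 FPKM), while Zbtb46, a factor of classical dendritic cells and endothelium, was at 17.5 ± 4.20 and 11.2 ± 1.85 FPKM and did not pass. The dendritic cell list summed to between 25.4 and 29.0 FPKM in ND and 20.4 and 24.5 in HFD. Monocyte markers had 3 of 4 called higher, including Chil3 (0.288 ± 0.143 to 3.74 ± 1.14 FPKM) and Ccr2 (13.9 ± 4.23 to 43.6 ± 7.75 FPKM). Neutrophil markers had 2 of 3 tested called higher, S100a8 (10.2 ± 4.78 to 101 ± 27.0 FPKM) and Csf3r (0.964 ± 0.163 to 3.90 ± 0.183 FPKM), and 1 lower, S100a9 (1.42 ± 0.826 to 0.381 ± 0.344 FPKM). Retnlg, a granule gene of neutrophils, did not exceed 0.103 FPKM in any group mean. The part of these cells in the members' values was not tested.

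Adipocyte markers fell as the members rose, with 5 of 7 called lower and 1 higher in HFD against ND. Of all tested genes 10.8% were called lower and 14.9% higher there, which also stands beside the other lists of this paragraph. Adrb3, the beta-3 adrenergic receptor, fell from 641 ± 93.6 to 97.3 ± 25.8 FPKM, whereas Lep (leptin) rose from 248 ± 53.7 to 1245 ± 63.4 FPKM. In CLE against HFD 5 adipocyte markers were called higher and 1, Lep, lower, against 6.33% and 10.1% of all tested genes. In LU against HFD 2 were called higher and 1, Lep, lower, against 4.81% and 7.64%. The sum of the adipocyte markers lay between 7475 and 7999 FPKM in ND, 5211 and 5928 in HFD, 7122 and 8523 in CLE and 6481 and 7349 in LU. Progenitor and fibroblast markers had 1 of 5 called higher in HFD, Col1a1 (42.7 ± 7.83 to 188 ± 19.3 FPKM), with Dpp4 at 6.24 ± 2.36 and 9.36 ± 0.355 FPKM. Endothelial markers had 1 of 4 called lower, Cldn5 (152 ± 35.3 to 68.5 ± 15.2 FPKM), with Kdr at 47.9 ± 12.4 and 32.8 ± 12.0 FPKM. Mesothelial markers had 4 of 5 called lower, among them Upk3b (12.0 ± 12.4 to 0.867 ± 1.05 FPKM) and Lrrn4 (4.95 ± 2.58 to 0.517 ± 0.314 FPKM), and Crisp1 of the epididymal epithelium was at 2.23 ± 2.55 and 0.176 ± 0.156 FPKM. The only testable lymphocyte marker of 9, Ncr1, was at 0.927 ± 0.278 and 0.978 ± 0.198 FPKM. How far these shifts in tissue makeup enter the members' FPKM was not tested.

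The members varied together over the libraries. Pearson's r between pairs of members on log2(FPKM + 1) lay between 0.88 and 1.00 over the 12 libraries for 21 pairs, with the HFD libraries far above the rest in each gene. Among the 6 CLE and LU libraries, taken as deviations from their own group mean, r lay between 0.77, for Spp1 with Cd9, and 0.99, for Itgax with Cd44, with a median of 0.95. These points share the high values of CLE mouse 11 and LU mouse 8. Outside the members, the genes most like their mean profile over the 12 libraries were Anpep (r = 0.999), Lat2 (0.999), Arhgap25 (0.998), Capg (0.998), Ctsk (0.998), Slc37a2 (0.997), Pik3r5 (0.997), Nceh1 (0.997), Dpep2 (0.997) and Pld3 (0.997). Of these, Capg and Ctsk, an actin capping protein and a lysosomal protease, also stand in the lipid-associated programme above. The single gene nearest to Trem2 was Itgb2 (0.998), to Tyrobp Adgre1 (0.999), to Gpnmb Rgs1 (0.995), to Itgax Hk3 (0.997), to Cd44 Pik3r5 (0.996), to Spp1 Basp1 (0.993) and to Cd9 Cdk18 (0.994). These r were picked as the highest among all tested genes outside the members, and they take in the differences between the groups. The share of tested genes with such r was not computed.

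For most members 1 annotated transcript carried the signal. Gpnmb-201 held 99.6% of the Gpnmb FPKM summed over the libraries, Cd9-201 99.5% of Cd9, Spp1-201 87.6% of Spp1, Itgax-201 86.2% of Itgax and Tyrobp-201 82.9% of Tyrobp. Such shares are estimates made by the authors' assembly from reads that the forms have in common, and at ND levels they rest on little signal: Spp1-201 ranged from 3.53 to 100% over the ND mice. They are given as descriptions with no test.

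Trem2 was listed in several forms. Trem2-201, the main coding form, held 59.2 to 66.5% in ND and 49.4 to 52.4% in HFD, and Trem2-204, a processed transcript with no annotated protein, held 33.5 to 37.8% and 26.8 to 31.1%. The coding form Trem2-202 held 0 to 3% in ND, 9.25 to 10.2% in HFD, 4.18 to 12.7% in CLE and 7.13 to 8.96% in LU. It keeps 55 bases ahead of exon 4 of Trem2-201 (chr17:48351691-48351745 of GRCm38, plus strand), a length that leaves a remainder of 1 when divided by 3. The stretch is shown because Trem2-202 holds it and Trem2-201 does not, although their annotated starts differ as well, and reads as follows in GENCODE M21.
Trem2-202 extension: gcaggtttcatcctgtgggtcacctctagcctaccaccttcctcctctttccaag

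Cd44 was almost entirely the standard form. Cd44-203, which skips the variable exons of the stem of CD44, held 95.5 to 99.2% in ND, 92.2 to 93.8% in HFD, 92.4 to 95.1% in CLE and 88.3 to 94.7% in LU. Cd44-206, which holds an additional exon of 207 bases (chr2:102831330-102831536 of GRCm38, minus strand), a length that divides by 3, was listed at 0, 3.05 and 0% in ND mice 2, 3 and 4, 4.22 to 6.32% in HFD, 3.20 to 5.36% in CLE and 2.70 to 10.3% in LU. The standard junction is shown with the last 20 bases before it in lower case and the first 20 after it in capitals, followed by the exon that Cd44-206 places between them, both from GENCODE M21.
Cd44-203 junction: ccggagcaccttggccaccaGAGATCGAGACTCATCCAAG
Cd44-206 exon: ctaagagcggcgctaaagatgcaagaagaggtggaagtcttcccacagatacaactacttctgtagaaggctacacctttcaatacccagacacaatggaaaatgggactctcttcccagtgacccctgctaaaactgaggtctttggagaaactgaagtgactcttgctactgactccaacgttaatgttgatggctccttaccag

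Since the members moved together, their promoters were searched for a few short motifs in windows from 250 bases before to 50 bases after the RefSeq start. Windows of GRCm38.p6 were found for 6 of the 7 genes, with 2 for Spp1 and none listed for Tyrobp. The motifs were GAGGAA, the core bound by PU.1, a factor of myeloid cells, TGANTCA, a loose form of the AP-1 site TGA(C/G)TCA, and the E-boxes CACGTG and CATGTG, bound by MITF and its relatives, on both strands. The motif TGANTCA stood in 3 of the 7 windows (Trem2, Gpnmb and Itgax), against 7.81% of 32851 windows of all genes. The Trem2 match, TGAATCA, is not of the stricter form TGA(C/G)TCA, while those of Gpnmb and Itgax are. GAGGAA stood in 3 (Trem2, Spp1 and Cd44), against 28.3%, CATGTG in 1 (Cd9), against 14.2%, and CACGTG in 0, against 7.15%. A match describes the letters and not a bound site, and none was tested. The 4 windows below hold the TGANTCA matches and the GAGGAA match of Spp1, from 130 bases before to 30 bases after the start, with matches in capitals.
Trem2 (chr17:48346271-48346430, plus strand): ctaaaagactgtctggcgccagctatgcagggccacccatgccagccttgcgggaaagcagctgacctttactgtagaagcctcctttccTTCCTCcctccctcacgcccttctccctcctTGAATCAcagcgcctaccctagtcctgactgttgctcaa
Gpnmb (chr6:49036388-49036547, plus strand): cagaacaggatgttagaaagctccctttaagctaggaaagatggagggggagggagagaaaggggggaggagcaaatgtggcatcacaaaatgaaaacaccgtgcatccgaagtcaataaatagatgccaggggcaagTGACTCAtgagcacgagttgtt
Itgax (chr7:128129420-128129579, plus strand): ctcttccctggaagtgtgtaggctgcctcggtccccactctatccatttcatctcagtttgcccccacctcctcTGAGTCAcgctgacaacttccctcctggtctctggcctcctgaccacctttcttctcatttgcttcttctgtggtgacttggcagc
Spp1 (chr5:104434981-104435140, plus strand): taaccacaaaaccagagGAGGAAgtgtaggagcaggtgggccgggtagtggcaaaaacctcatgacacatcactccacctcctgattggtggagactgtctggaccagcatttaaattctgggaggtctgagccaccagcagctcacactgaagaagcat

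In Trem2 the TGANTCA match began 9 bases before the start, at -9, and the GAGGAA match, on the other strand, at -40. In Itgax it began at -56, and in Gpnmb at 9 bases into the transcript, counted from 1 at the start. The GAGGAA match of Spp1 began at -113. These positions are those of RefSeq starts, which need not be the starts used in eWAT.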

How the data were processed

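RNA of eWAT was sequenced in 12 libraries. The submitters' notes name CASAVA 1.8.2, TopHat2 2.0.12, Bowtie2 2.2.3 and Cufflinks 2.2.1, and per the file headers the authors deposited FPKM per transcript in 1 table of 152210 rows. It holds 15 FPKM columns, of which 3 belong to none of the samples and were left aside. Columns of the authors' comparisons (calls of changed transcripts) were not used either. The CLE libraries are headed CLL, as their titles are, and the 3 columns left aside CLH. The labels of the CLL samples name the CLE diet and give 1 dose for it, but do not explain the abbreviation. The column of ND mouse 4 was assigned by inference from its number, its letter R and its place in a comparison header. Low values held no whole-read steps (10 to 19.5% of multiples whole within 0.05), so reads were not recovered and no counting interval is given.

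Transcripts were assigned to genes by GENCODE M21 (GRCm38) and summed. Rows of Malsu1 and Treml1, filed under Gpnmb and Trem2, were left out. Differences were tested with limma 3.58.1 (R 4.3.3) on log2(FPKM + 1) in 1 fit of 12 libraries without covariates, on genes that reached 1 FPKM in 3 or more libraries. Calls required an adjusted p below 0.05 together with a change of more than 1.5-fold. The scripts were tested on simulated data. Single genes were also given exact permutation tests. The p-values of limma set a group difference against the spread between mice within groups of 3. That spread was shared by the 4 groups and moderated over all tested genes.

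The members, the lists and the tests were chosen with earlier results of these data known. Named were the members, from each list the 2 tested genes with the largest change in HFD against ND and any called against most of its list, the 10 genes most like the members' mean profile and the nearest gene of each member, and 1 gene of this rule is not reported here. The comparison with the summed core genes was added after seeing the data. The shared mouse numbers do not pair mice. Python 3.11.15, pandas 2.3.3, numpy 2.4.6 and matplotlib 3.10.9 were used.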

Additional observations from a re-analysis of the deposited data

How the results depend on the processing

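Of the 161 member values under 23 alternatives, all kept their direction and their side of the threshold in HFD against ND and in CLE against HFD, and 160 did so in LU against HFD, Gpnmb without the libraries with the letter R (-2.69) being the exception. Leaving out a library of neither group compared cannot change the fold change, only the shared spread. Part of this agreement in direction was therefore fixed in advance. No member changed direction where it was called. In CLE against ND, where 4 members were called, the number was 1 with no filter on low values, 0 in a fit of only the 2 groups, 0 without the libraries with the letter R, 2 with only each gene's most abundant transcript, and 0 to 5 when 1 library was left out. The genes called there numbered 372, and under the same settings 227, 0, 183, 207, and 124 to 498, with 224 when assembled forms with new junctions were left out. In LU against ND 2 members in place of 6 were called without the libraries with the letter R. Between CLE and LU the gene called was lost (0 genes) with the pseudocount at 0.1, without a filter, when a mean of 5 FPKM was required, with both scalings, a fit of the 2 groups, the letter R as a covariate, the highest transcript and no new junctions, and numbered 0 to 1 when 1 library was left out. With the mouse number as a replicate block in the 9 ND, CLE and LU libraries, 0 members and 2 genes were called in CLE against ND, 407 genes in place of 842 in LU against ND, and 0 between CLE and LU, but mice share only a number (r of the deviations of same-numbered mice -0.10 to 0.19), and HFD shares no number with the other groups. The causes were not tested. With the rows filed under Gpnmb by name, its rise in HFD was 4.92 in place of 6.54, and 3 members in place of 4 were called in CLE against ND. Scaling by median ratios or quantiles moved the median of all genes by at most 0.07 (log2). The unknown depth limits what can be said of Spp1 and Trem2 in ND, and 3 mice per group limit all comparisons.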
